A study of Mus musculus with 24 samples.

Results

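*Nfe2l2*, which encodes the transcription factor Nrf2, and 9 genes of antioxidant defence that are commonly listed as Nrf2 targets or antioxidant enzymes were followed through the sequencing data of irradiated mouse astrocytes. The members were chosen by gene symbol, and all 10 were found among the 49315 genes in the count tables. Besides *Nfe2l2* they were *Hmox1*, *Nqo1*, *Gclm*, *Gclc*, *Slc7a11*, *Gsr*, *Txnrd1*, *Srxn1* and *Sod2*. In resting cells Keap1 holds Nrf2 in the cytoplasm and marks it for degradation; oxidants and electrophiles modify Keap1, and Nrf2 then accumulates, enters the nucleus and binds antioxidant response elements together with small Maf proteins. Much of this control acts on the protein, so the *Nfe2l2* mRNA does not measure Nrf2 activity. In the brain, astrocytes are known for a strong Nrf2 response and supply glutathione precursors to neurons, and ionizing radiation produces reactive oxygen species in the cells it passes through.

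The cells were primary astrocytes from the cortex of wild type C57BL/6J embryos at embryonic day E18.5. They were exposed to X-rays at 0 Gy (mock-irradiated), 0.1 Gy or 2 Gy and harvested 6 h or 24 h later, which gave 6 groups of 4 libraries, numbered as replicates 1 to 4. All groups shared the strain, the genotype, the source tissue and the culture conditions, and by design they differed in dose and time. The study pooled the cortical cells of all embryos of one pregnant mouse and used the cultures at passage 1, so a library stands for a culture and not for an animal.

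The total count per library was between 14742855 and 38194800. Of the 10 astrocyte markers examined all were detected in every library, and their summed level was between 1997 and 3123 CPM (counts scaled to a common library size). Markers of other cells were also present. The 10 microglial markers summed to 922 to 2070 CPM in the libraries of replicates 1, 3 and 4, and to 146 to 205 CPM in the 6 libraries of replicate 2. Neuronal markers summed to 405 to 711 CPM with *Rbfox3* under 1 CPM throughout, oligodendrocyte lineage markers to 271 to 864 CPM with *Mog* under 1 CPM, and fibroblast and vessel markers to 3755 to 7624 CPM. Of that last sum *Acta2*, also a gene of smooth muscle and of cultured contractile cells, held 2872 to 7173 CPM. The collagen genes *Col1a1* and *Col1a2* were at medians of 388 and 243 CPM and *Pdgfrb*, a gene of pericytes and fibroblasts, at 62.7 CPM, while *Dcn* and *Pecam1* had medians of 0.679 and 0.630 CPM and *Lum* and *Cldn5* were under 1 CPM throughout. Between 6 h and 24 h the median neuronal sum went from 434 to 551 CPM at 0 Gy, from 423.5 to 510 at 0.1 Gy and from 434 to 544 at 2 Gy. The median microglial sum went from 1486 to 1111, from 1455 to 1313 and from 1460 to 1311 CPM. The ranges of the times overlapped for both. The part of such shifts in the differences between the times was not tested. In such bulk RNA, fewer cells of a type and less RNA per cell cannot be told apart. *Gm42418*, a gene that overlaps ribosomal RNA sequence, took 0.364% to 10.4% of the counts of a library.

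The sequences around the best known core of the antioxidant response element, TGACNNNGC, are shown because this is the element through which Nrf2 is described to act, and because they show that the members are not alike at their starts. The motif was searched on both strands in RefSeq windows of 300 bases (GRCm38.p6), from 250 bases before to 50 bases after each annotated gene start. Windows were given for 7 of the 10 members, and those of 4 held the motif. *Hmox1*, *Gclc* and *Gsr* had no window. Of all 32851 windows 12.4% held the motif, and of the 12277 tested genes with a window 16.9%. Of 71 genes with a window from the further pathway lists described below, 25.4% held it. The motif is in capitals, with 10 flanking bases on each side, on the strand of the gene.
Nfe2l2: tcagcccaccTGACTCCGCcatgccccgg
Gclm: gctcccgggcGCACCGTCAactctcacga
Txnrd1: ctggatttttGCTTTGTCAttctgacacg
Srxn1: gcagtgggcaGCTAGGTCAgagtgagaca
The *Nfe2l2* stretch is chr2:75704885-75704913 on the minus strand, where the motif begins at position -240 from the gene start and reads in the direction of the gene. The other 3 stretches are on the plus strand and hold the motif on the opposite strand, so that it appears as its reverse complement. They are chr3:122245413-122245441 for *Gclm* (position -134), chr10:82859104-82859132 for *Txnrd1* (position -92, in 1 of 3 windows) and chr2:152105542-152105570 for *Srxn1* (position 28, within the transcript). The windows of *Nqo1*, *Slc7a11* and *Sod2* did not hold these letters. Sequence outside the windows was not searched, so a gene without a match here may still have the element further away. A match is a description of the letters and not of a binding site.

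Per length, the members covered a wide range. The median over 24 libraries, as CPM per kilobase of transcript (RPKM), was 185 for *Hmox1*, 97.8 for *Txnrd1* and 80.0 for *Nfe2l2*. It was 35.7 for *Srxn1*, 30.7 for *Gclc*, 21.1 for *Sod2*, 20.1 for *Gclm*, 18.7 for *Gsr* and 10.3 for *Nqo1*, and 0.918 for *Slc7a11*. The lowest raw counts, 150 to 652 per library, were those of *Slc7a11*, followed by *Nqo1* with 190 to 754, and the other members had at least 776 counts in each library. *Hmox1*, *Txnrd1* and *Nfe2l2* stood at percentiles 97.6 to 98.0 of expression among the genes tested, whereas *Nqo1* and *Slc7a11* stood near the middle, at percentiles 50.1 and 45.1.

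**Figure D1:**
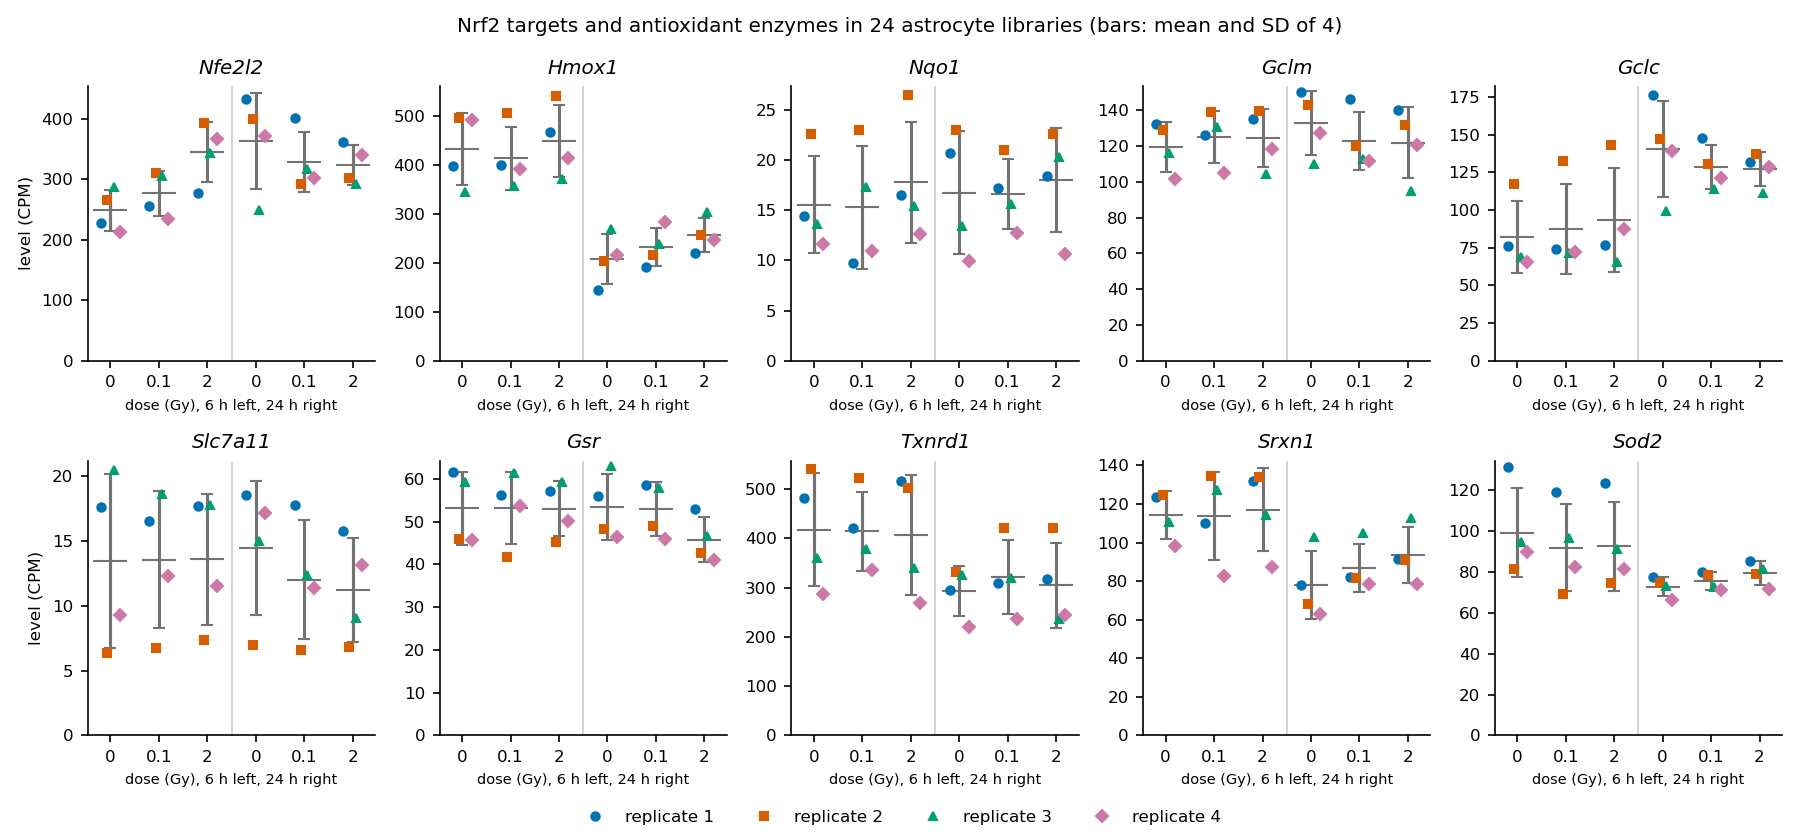
Levels of the 10 genes in each of the 24 libraries, in CPM after TMM normalization, by dose (0, 0.1 and 2 Gy) at 6 h (left of the line) and 24 h (right); colours and symbols mark the replicate number, grey bars the mean and SD of 4 libraries. *Hmox1* lies between 345 and 541 CPM at 6 h and between 145 and 304 CPM at 24 h with no overlap, and *Slc7a11* is lowest in replicate 2 of all 6 groups.

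Between 6 h and 24 h, *Hmox1* was lower at every dose, and it was the member called at each dose by the unpaired test. *Hmox1* (ENSMUSG00000005413, chr8:75093621-75100589) encodes heme oxygenase-1, which breaks down heme to biliverdin, carbon monoxide and iron. In mock-irradiated cells its level at 6 h was 397, 495, 345 and 492 CPM in replicates 1 to 4, and at 24 h it was 145, 203, 269 and 215 CPM. Every 24 h library was below every 6 h library, and replicate 3 moved least. After 0.1 Gy it was 400, 505, 357 and 391 CPM at 6 h, and 192, 217, 238 and 284 CPM at 24 h. After 2 Gy it was 466, 541, 371 and 414 CPM at 6 h, and 220, 257, 304 and 246 CPM at 24 h. The ranges of the times did not meet at any dose, and the 6 h groups overlapped among themselves, as did the 24 h groups. The order of the group means followed from this, with 448 ± 73.3 CPM (2 Gy), 432 ± 73.8 (0 Gy) and 413 ± 63.7 (0.1 Gy) at 6 h above 257 ± 35.0 (2 Gy), 233 ± 38.8 (0.1 Gy) and 208 ± 51.0 (0 Gy) at 24 h (SD, n = 4).

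By edgeR's quasi-likelihood test with adjustment over all genes tested, *Hmox1* fell between 6 h and 24 h by 1.07 on the log2 scale at 0 Gy (SE 0.21, adjusted p = 0.0211), by 0.85 at 0.1 Gy (SE 0.16, adjusted p = 0.0138) and by 0.81 at 2 Gy (SE 0.16, adjusted p = 0.0228). It was the 1 member of 10 that was called at an adjusted p under 0.05 in each of these 3 comparisons, where 6.7%, 9.9% and 6.95% of all genes were called. The groups did not overlap in 14.8%, 18.4% and 17.4% of all genes. The test at 0.1 Gy held when any 1 of the 8 libraries was left out (adjusted p from 0.0228 to 0.0452). At 0 Gy it was lost without replicate 1 at 24 h (adjusted p = 0.0660), replicate 4 at 24 h (0.0663) or replicate 1 at 6 h (0.0695), and at 2 Gy without replicate 1 or 4 at 24 h or any of the 4 libraries at 6 h (0.0502 to 0.0787), while the log2 difference stayed between -1.21 and -0.69 in all of these fits. With all 24 libraries in one edgeR fit, *Hmox1* had adjusted p-values of 0.000472 at 0 Gy, 0.00387 at 0.1 Gy and 0.00426 at 2 Gy.

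*Gclc*, *Srxn1* and *Txnrd1* differed in the same sense at each dose without passing the unpaired test. *Gclc* (ENSMUSG00000032350, chr9:77754535-77794485) encodes the catalytic subunit of glutamate-cysteine ligase, the rate-limiting enzyme of glutathione synthesis. Its level in mock-irradiated cells was 76.4, 118, 69.2 and 65.5 CPM at 6 h and 176, 147, 99.3 and 139 CPM at 24 h in replicates 1 to 4. All 4 numbers were higher at 24 h, as in 16.7% of all genes, but replicate 2 at 6 h exceeded replicate 3 at 24 h. After 0.1 Gy the values were 74.3, 132, 71.5 and 72.2 CPM at 6 h and 148, 131, 114 and 121 CPM at 24 h, and after 2 Gy 76.8, 143, 65.6 and 87.3 CPM against 132, 137, 111 and 129 CPM. Replicate 2 thus had a high *Gclc* level at 6 h in all 3 groups and, in the irradiated groups, was no higher at 24 h, unlike the other numbers. The log2 difference of *Gclc* was 0.76 at 0 Gy (SE 0.23, adjusted p = 0.0846), 0.53 at 0.1 Gy (SE 0.22, adjusted p = 0.159) and 0.44 at 2 Gy (SE 0.23, adjusted p = 0.296) in edgeR. With 1 library left out the same test called *Gclc* in 2, 1 and 1 of 8 fits, and its adjusted p-values reached 0.221, 0.307 and 0.512. The fits that called it were those without replicate 2 at 6 h (1.00, 0.82 and 0.74, adjusted p = 0.0315, 0.0105 and 0.0422, with 5.13%, 9.15% and 3.82% of all genes called) and, at 0 Gy, that without replicate 3 at 24 h (0.90, adjusted p = 0.0253, with 18.6% called).

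*Srxn1* (ENSMUSG00000032802, chr2:152105516-152111376) encodes sulfiredoxin, which reactivates overoxidized peroxiredoxins. In mock-irradiated cells it stood at 124, 125, 110 and 98.1 CPM at 6 h and at 78.0, 68.2, 103 and 63.1 CPM at 24 h. It was lower at 24 h within all 4 replicate numbers, with overlap because of the high replicate 3 at 24 h. The log2 difference of *Srxn1* was -0.57 at 0 Gy (SE 0.17, adjusted p = 0.0776), -0.41 at 0.1 Gy (SE 0.16, adjusted p = 0.149) and -0.33 at 2 Gy (SE 0.17, adjusted p = 0.281), with all 4 numbers lower at each dose. *Txnrd1* (ENSMUSG00000020250, chr10:82859206-82897724) encodes the cytosolic thioredoxin reductase, which uses NADPH to keep thioredoxin reduced. Its values were 481, 541, 361 and 286 CPM at 6 h and 296, 332, 325 and 221 CPM at 24 h in mock-irradiated cells. Here too every number was lower at 24 h at each dose, and the ranges overlapped. Of all genes 17.4%, 22.2% and 22.2% were lower at 24 h in all 4 numbers at 0, 0.1 and 2 Gy. At 0 Gy the numbers did not pair the times across genes. The *Txnrd1* log2 differences were -0.52, -0.39 and -0.43 at 0, 0.1 and 2 Gy, with adjusted p-values of 0.180, 0.261 and 0.388.

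Libraries of the same number deviated together from their group means across genes at 0.1 and 2 Gy, and on that ground the numbers were used as pairs there. The labels do not say whether same-numbered libraries of 6 h and 24 h come from the same isolation. At 0.1 Gy 3 of 4 numbers correlated best with their own number, and at 2 Gy 4 of 4. With the replicate number as a block, 4 of the 10 members were called between 6 h and 24 h at 0.1 Gy, where 25.7% of all genes were called. They were *Hmox1* (log2 difference -0.85, adjusted p = 0.00172), *Txnrd1* (-0.40, adjusted p = 0.0154), *Gclc* (0.58, adjusted p = 0.0203) and *Srxn1* (-0.39, adjusted p = 0.0375). *Hmox1* kept its call without any 1 replicate number. *Txnrd1* lost it without replicate 2 (adjusted p = 0.0533) or 4 (0.112), *Gclc* without replicate 1 (0.0564) or 4 (0.0949), and *Srxn1* without replicate 1 (0.0828), 2 (0.186) or 4 (0.0560). At 2 Gy the blocked test called *Hmox1* (adjusted p = 0.0101) and no other member, with 19.2% of genes called; *Gclc* had an adjusted p of 0.0585 and *Txnrd1* of 0.0713. The call of *Hmox1* under the block at 2 Gy did not hold without replicate 1, 2 or 4 (adjusted p = 0.0578, 0.0508 and 0.0615). With GC and length adjusted for besides the block, the 4 members *Hmox1*, *Gclc*, *Txnrd1* and *Srxn1* were called at 0.1 Gy and at 2 Gy, where 36.1% and 28.7% of all genes were called.

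*Sod2* (ENSMUSG00000006818, chr17:13007839-13018119) encodes the manganese superoxide dismutase of mitochondria, a target of NF-kB as well. In mock-irradiated cells it was at 131, 81.6, 94.5 and 89.9 CPM at 6 h and at 77.3, 74.7, 73.1 and 66.5 CPM at 24 h, without overlap. The log2 difference was -0.46 (SE 0.16, adjusted p = 0.118), and it was -0.30 at 0.1 Gy (adjusted p = 0.268) and -0.24 at 2 Gy (adjusted p = 0.466), where the ranges overlapped. The spread of *Sod2* was also unequal between the times, with an SD of 21.4 to 22.0 CPM in the 6 h groups and of 4.32 to 5.84 CPM in the 24 h groups. *Nfe2l2* (ENSMUSG00000015839, chr2:75675513-75704641) was higher at 24 h in 3 of 4 numbers of mock-irradiated cells, with a log2 difference of 0.53 (SE 0.19, adjusted p = 0.12). That difference of *Nfe2l2* passed the test in 1 of 8 fits with 1 library left out, the one without replicate 3 at 24 h (0.68, adjusted p = 0.0148), in which 4 members and 18.6% of all genes were called, and its adjusted p was up to 0.293 in the others. *Gclm*, *Gsr*, *Nqo1* and *Slc7a11* had adjusted p-values from 0.393 to 0.994 in the 3 comparisons of the times.

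**Figure D2:**
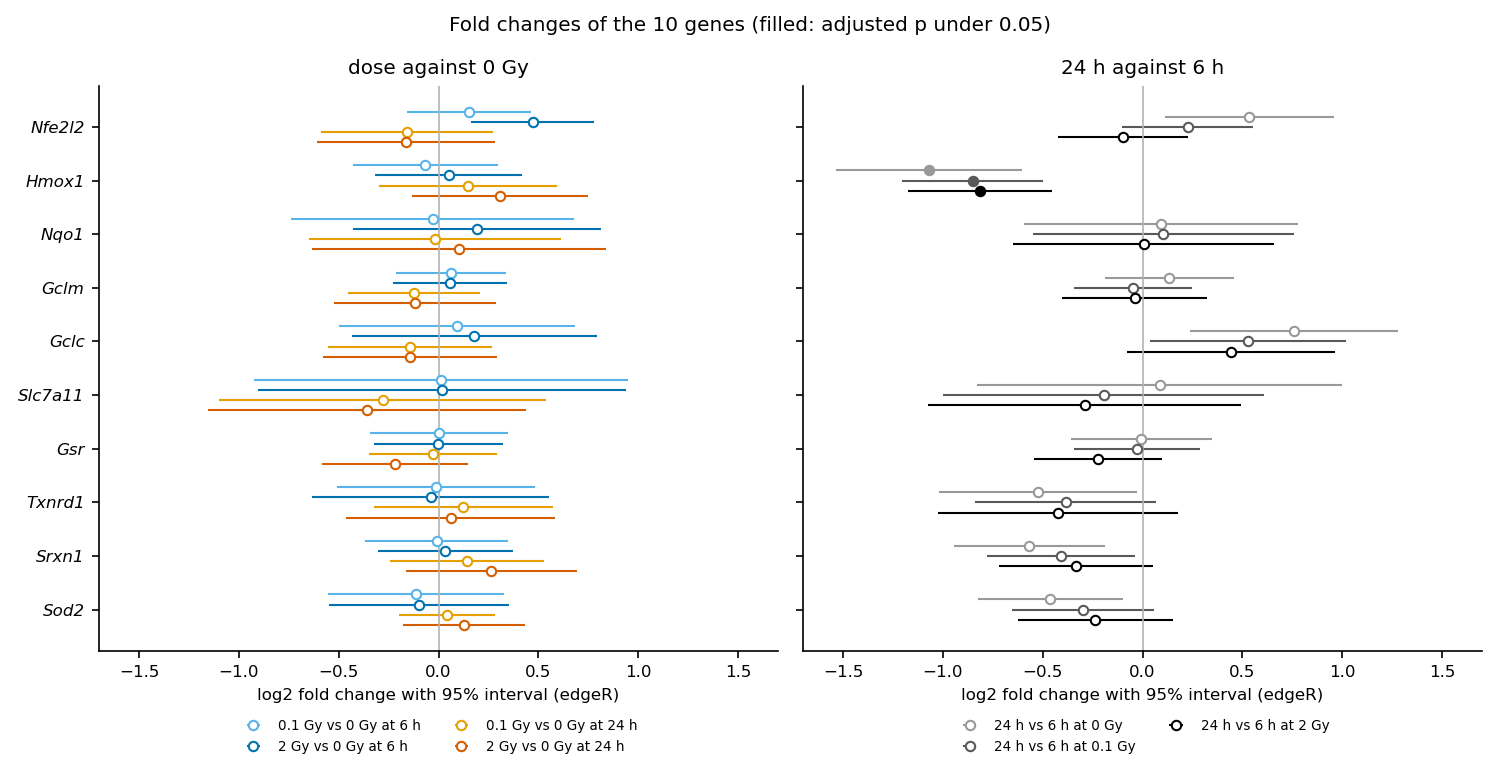
Log2 fold changes with 95% intervals from edgeR for the 10 genes, for each dose against 0 Gy (left) and for 24 h against 6 h at each dose (right); filled points have an adjusted p under 0.05. The filled points are the 3 of *Hmox1* on the right, at -1.07, -0.85 and -0.81.

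No member was called in a comparison of doses by the unpaired test. The number called was 0 of 10 for 0.1 Gy and then 2 Gy against 0 Gy at 6 h, for the same pair at 24 h, and for 2 Gy against 0.1 Gy at 6 h and at 24 h. The share of all genes called in these 6 comparisons was 0% in edgeR (0 of 15892 to 16278 genes, with 24 to 570 genes at an unadjusted p under 0.05). DESeq2 also called 0 members in each, and of all genes with an adjusted p it called 0% to 0.654%, the most for 2 Gy against 0 Gy at 24 h. At an unadjusted p under 0.05 in edgeR there was 1 member, *Nfe2l2*, for 2 Gy against 0 Gy and against 0.1 Gy at 6 h, and 0 in the other 4 comparisons. Both doses were compared with the same mock-irradiated libraries. The groups of no member lay apart in any of them, against 0.45%, 1.18%, 1.15%, 2.81%, 0.767% and 1.25% of all genes in the order given.

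*Nfe2l2* differed most with dose at 6 h. Its level was 228, 266, 287 and 213 CPM in the mock-irradiated libraries, 256, 311, 305 and 234 CPM after 0.1 Gy and 277, 392, 343 and 366 CPM after 2 Gy. Each irradiated library was above the mock-irradiated library of its number, as in 7.37% of all genes for 0.1 Gy and 8.69% for 2 Gy. The values after 2 Gy were above those after 0.1 Gy in all 4 numbers, as in 6.69% of all genes, although the ranges overlapped. The ratio of 2 Gy to 0 Gy was 1.21, 1.47, 1.20 and 1.72 in replicates 1 to 4. The log2 difference was 0.47 (SE 0.14, 95% interval 0.16 to 0.78, unadjusted p = 0.00716, adjusted p = 1.00 in edgeR). Under the replicate block it was 0.47 with an adjusted p of 0.264, and adding an adjustment of each library for the GC content and length of its genes gave 0.43 with an adjusted p of 0.0375, where 0.719% of all genes were called. Of the blocked fits without a replicate number, the one without replicate 4 called it (0.37, adjusted p = 0.0232, with 0.799% of all genes called), and the other 3 did not.

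At 24 h the mean of *Nfe2l2* was lower after either dose than in mock-irradiated cells (328 CPM after 0.1 Gy and 324 CPM after 2 Gy against 363 CPM). The values after 0.1 Gy and 2 Gy had no common order across the replicate numbers. The mock-irradiated libraries held 432, 399, 250 and 372 CPM, those after 0.1 Gy 401, 292, 317 and 302 CPM, and those after 2 Gy 362, 302, 291 and 340 CPM. Replicates 1, 2 and 4 were lower after either dose and replicate 3 was higher, its mock-irradiated library being the lowest of the 12. The log2 difference from 0 Gy was -0.16 for both doses (adjusted p = 0.943 and 0.940), and with the block it was -0.14 for both (adjusted p = 0.440 and 0.422). The blocked fit without replicate 3 gave -0.29 after 0.1 Gy and -0.25 after 2 Gy (adjusted p = 0.0389 and 0.00808), with 23.2% and 33.1% of all genes called in those fits. The test of the difference itself, the interaction of 2 Gy and time, gave -0.62 (SE 0.24, adjusted p = 0.819; 0% of 16866 genes called). With the replicate number within a time as a block it gave -0.60 (SE 0.16, adjusted p = 0.0427, 6.78% of genes called), and when GC and length were adjusted for as well -0.50 (adjusted p = 0.0538). The blocked call was lost without replicate 1 (adjusted p = 0.128), 2 (0.287) or 4 (0.139), and without replicate 3 the difference was -0.78 (adjusted p = 0.00569, 23.4% of genes called).

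Between 2 Gy and mock-irradiated cells at 24 h, *Hmox1*, *Srxn1* and *Sod2* were higher in all 4 numbers, and *Slc7a11*, *Gsr* and *Gclm* were lower in all 4. Of all genes 18.9% were higher and 20.6% lower in all 4 numbers of this comparison. The ratio of *Hmox1* was 1.51, 1.27, 1.13 and 1.15 in replicates 1 to 4, and the log2 difference was 0.31 (SE 0.20, adjusted p = 0.940), or 0.33 with the replicate block (adjusted p = 0.0573). The ratio of *Srxn1* was 1.18, 1.33, 1.10 and 1.24, with a log2 difference of 0.26 (SE 0.19, adjusted p = 0.940), or 0.28 with the block (adjusted p = 0.0681). For these genes the difference between doses did not exceed the spread between libraries, and within pairs, where 13.2% of all genes were called, it missed the threshold. The blocked fit without replicate 3 called 5 of the 10 members and 33.1% of all genes. *Hmox1* (0.39, adjusted p = 0.000819), *Srxn1* (0.33, adjusted p = 0.00160) and *Txnrd1* (0.21, adjusted p = 0.0229) were higher in it, and *Nfe2l2* (-0.25, adjusted p = 0.00808) and *Gclc* (-0.20, adjusted p = 0.0392) were lower. The blocked fits without replicate 1, 2 or 4 called 0 members, and those without a number called 0.432% to 33.1% of all genes.

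*Slc7a11* (ENSMUSG00000027737, chr3:49892526-50443614) encodes xCT, the cystine-glutamate exchanger that imports cystine for glutathione synthesis. It was at 18.6, 6.99, 15.0 and 17.1 CPM in mock-irradiated cells at 24 h and at 15.8, 6.83, 9.10 and 13.2 CPM after 2 Gy. The log2 difference was -0.36 (SE 0.35, adjusted p = 0.940) and -0.35 with the block (adjusted p = 0.103), and it was 0.04 once GC content and length were corrected for. *Slc7a11* had the lowest GC content of the members, 40.7% (the 8.6th percentile of genes), and differences between 2 Gy and 0 Gy at 24 h correlated with GC content across 15855 genes (r = 0.559, a description across genes). *Hmox1* and *Srxn1* had the highest GC content, 53.3% each, and with this correction their differences were 0.14 and 0.13.

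*Gsr* (ENSMUSG00000031584, chr8:33652523-33698163), the reductase that returns oxidized glutathione to its reduced form, was at 56, 48.4, 63.1 and 46.4 CPM in mock-irradiated cells at 24 h and at 52.9, 42.6, 46.6 and 41.0 CPM after 2 Gy. Its group mean of 45.8 ± 5.28 CPM after 2 Gy was the lowest of the 6, the others being 52.9 to 53.5 CPM, and the log2 difference from 0 Gy was -0.22 (SE 0.16, adjusted p = 0.940). *Sod2* was higher after 2 Gy in all 4 numbers at 24 h, by ratios of 1.10, 1.06, 1.12 and 1.08. Its log2 difference was 0.13 both without the block (adjusted p = 0.940) and with it (adjusted p = 0.317), and 0.33 with the block and GC and length adjustment (adjusted p = 0.0363, 3.51% of genes called). The interaction of 2 Gy and time for *Sod2* was 0.23 without the block (adjusted p = 0.845), 0.24 with it (adjusted p = 0.149) and 0.53 with the block and adjustment (adjusted p = 0.0351, 2.38% of genes called). The larger values of *Sod2*, with a GC content of 42.2% (the 13.7th percentile of genes), thus came with the adjustment. *Gclc* had a log2 difference of -0.14 (adjusted p = 0.940).

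**Figure D3:**
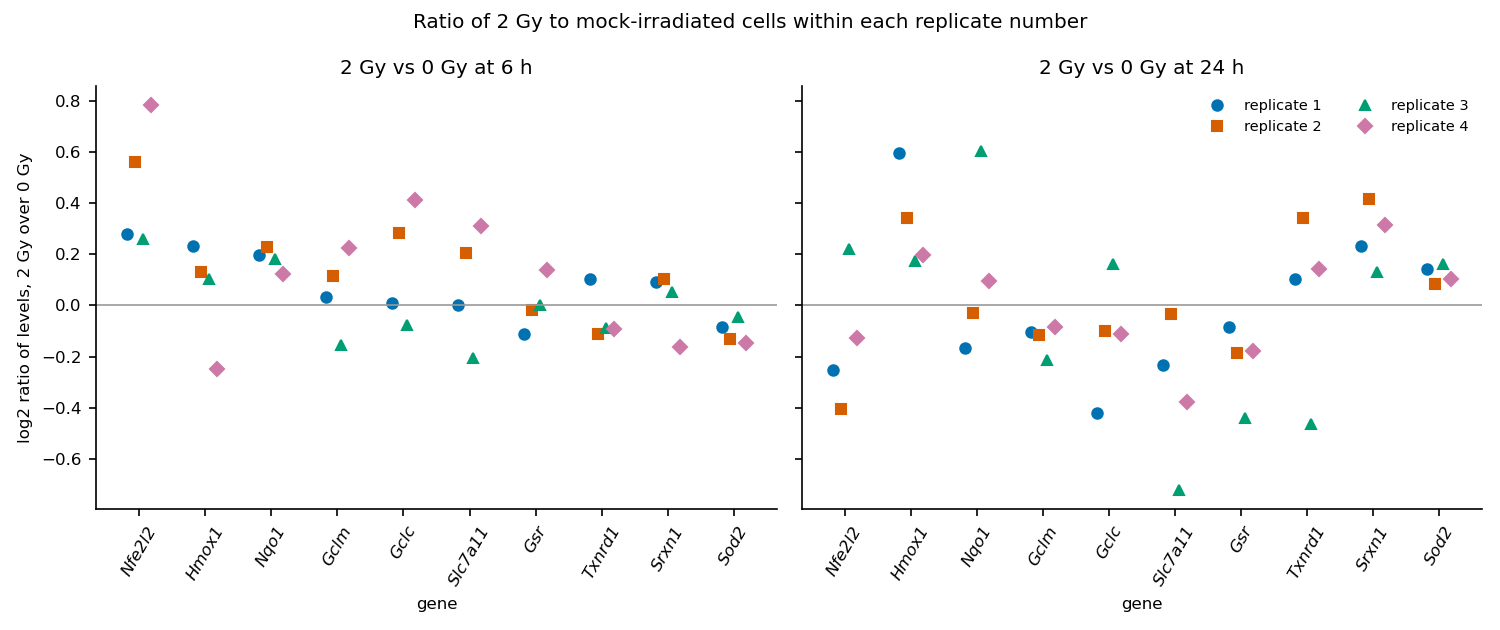
Log2 ratio of the level after 2 Gy to that of mock-irradiated cells within each replicate number, at 6 h (left) and 24 h (right), for the 10 genes; 0 is no difference. *Nfe2l2* is above 0 in all 4 numbers at 6 h and in 1 of 4 at 24 h, and *Hmox1*, *Srxn1* and *Sod2* are above 0 in all 4 numbers at 24 h.

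At 24 h after 0.1 Gy the log2 differences of the 10 members from mock-irradiated cells lay between -0.28 (*Slc7a11*) and 0.15 (*Hmox1*), with a median of -0.022 against -0.007 over all genes tested. *Slc7a11* was at 17.8, 6.56, 12.4 and 11.4 CPM in replicates 1 to 4 after 0.1 Gy, against 18.6, 6.99, 15.0 and 17.1 CPM in mock-irradiated cells. It was lower in all 4 numbers and the groups overlapped, with a difference of -0.28 (SE 0.36, adjusted p = 0.943), or -0.27 with the block (adjusted p = 0.165) and 0.08 with GC and length adjustment. *Srxn1* was the member higher in all 4 numbers, by ratios of 1.02 to 1.24 (log2 difference 0.14, SE 0.17, adjusted p = 0.943). Of all genes 15.6% were higher and 15.7% lower in all 4 numbers of this comparison.

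At 6 h the log2 differences between 2 Gy and 0 Gy of the 9 members besides *Nfe2l2* began at -0.10 (*Sod2*) and ended at 0.19 (*Nqo1*), and those between 0.1 Gy and 0 Gy of all 10 lay from -0.11 (*Sod2*) to 0.15 (*Nfe2l2*). The median over the 10 members was 0.042 for 2 Gy and -0.003 for 0.1 Gy, and -0.002 and -0.004 over all genes tested. For 2 Gy at 6 h the 95% interval of *Gclm*, which encodes the modifier subunit of glutamate-cysteine ligase (ENSMUSG00000028124, chr3:122245557-122270732), ran from -0.23 to 0.34 without the block and from -0.13 to 0.24 with it, and that of *Slc7a11* from -0.90 to 0.94 and from -0.19 to 0.32. *Nqo1* (ENSMUSG00000003849, chr8:107388225-107403206), the quinone reductase often used as a reporter of Nrf2 activity, had an interval from -0.43 to 0.81, or from -0.02 to 0.39 with the block. Its values were 14.4, 22.6, 13.6 and 11.6 CPM in mock-irradiated cells and 16.5, 26.5, 15.4 and 12.7 CPM after 2 Gy. All 4 numbers were higher by ratios of 1.09 to 1.17, as in 8.69% of all genes, and the groups overlapped. *Sod2* was lower after 2 Gy than at 0 Gy in all 4 numbers at 6 h, by ratios of 0.904 to 0.969, as in 8.43% of all genes.

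The replicate number within a time held more of the variation than dose did in all 10 members, and in 9 of them per degree of freedom (6 for replicate number, 4 for dose). For *Nfe2l2* the order turned, with 7.22% of its sum of squares per degree of freedom for dose and 5.7% for replicate number. When the sum of squares of log2 CPM over the 24 libraries was divided, replicate number within a time held 91.5% for *Slc7a11*, 81.9% for *Nqo1*, 74.7% for *Gclm* and 72.9% for *Gsr*. Time held 77.4% for *Hmox1*, 51.0% for *Gclc* and 44.5% for *Srxn1*. Dose within a time held 28.9% for *Nfe2l2* and 14.1% for *Gsr*, and 1.1% to 6.6% for the other 8 members.

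**Figure D4:**
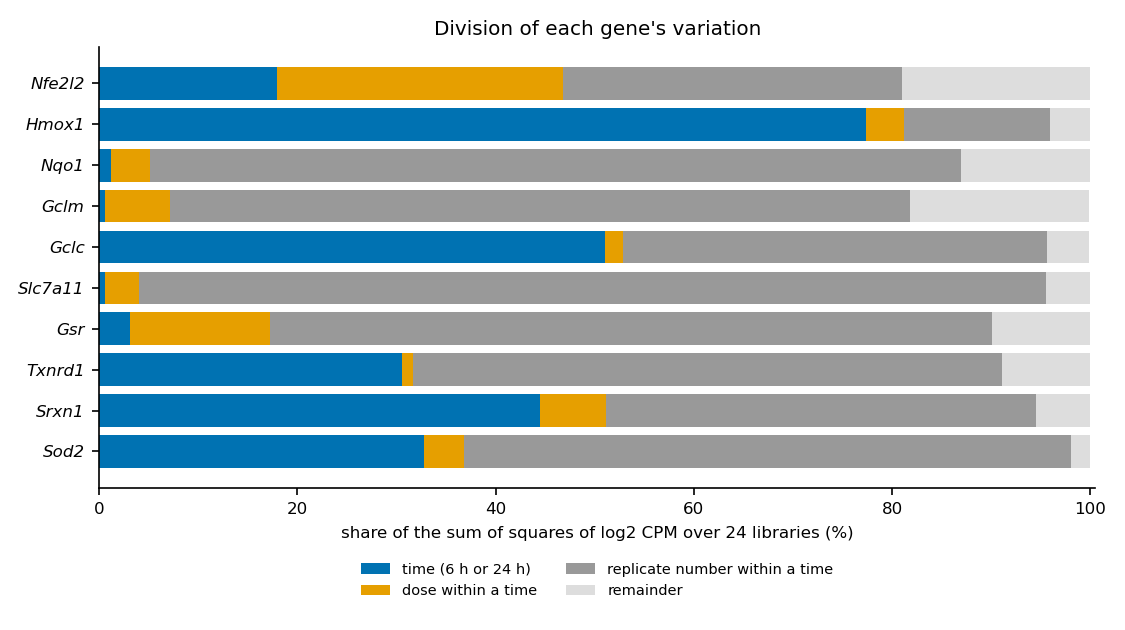
Share of the sum of squares of log2 CPM over 24 libraries that lies between the times, between doses within a time, between replicate numbers within a time, and in the remainder, for the 10 genes. The share of time is largest for *Hmox1* (77.4%), that of dose for *Nfe2l2* (28.9%) and that of the replicate number for *Slc7a11* (91.5%).

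Replicate 2 stood apart in both *Slc7a11* and *Nqo1*. *Slc7a11* was at 6.37 to 7.34 CPM in its 6 libraries and at 9.10 to 20.5 CPM in the other 18, and was lowest in replicate 2 in all 6 groups. *Nqo1* was at 21 to 26.5 CPM in the same 6 libraries and at 9.78 to 20.7 CPM in the others, and was highest there in all 6 groups. These are the libraries with a microglial marker sum of 146 to 205 CPM, and of the markers *Aif1* was at 1.97 CPM and *P2ry12* at 1.44 CPM at their lowest over the 24 libraries, so none of the 10 was at 0. The replicate 2 libraries also had the highest neuronal marker sums, 599 to 711 CPM against 405 to 565 CPM in the others. Their oligodendrocyte lineage sums, 554 to 864 CPM, were the highest of each group. Among the other 18 libraries, *Slc7a11* was lowest in replicate 3 at 24 h after 2 Gy (9.10 CPM) and in replicate 4 at 6 h without irradiation (9.31 CPM), which had the 2 largest microglial marker sums of the 24, 1824 and 2070 CPM. Over the same 18 libraries, however, *Slc7a11* had r = 0.752, 0.770 and 0.751 with *Prkcb*, *Ptprc* and *Lyn*, genes expressed in leukocytes and microglia. The part of the other cells in these levels was not tested. Other numbers stood out elsewhere, as *Sod2* was highest in replicate 1 in all 6 groups and *Srxn1* lowest in replicate 4 in all 6.

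**Figure D5:**
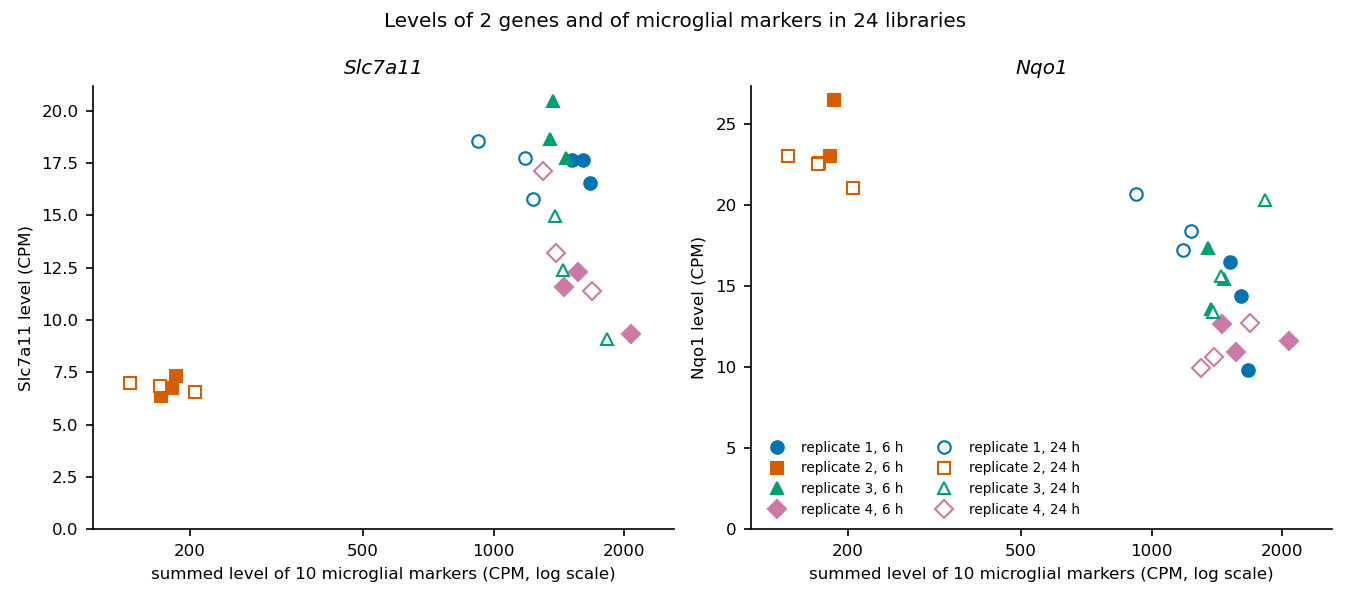
Levels of *Slc7a11* (left) and *Nqo1* (right) in CPM against the summed level of 10 microglial markers in CPM (log scale) in 24 libraries; symbols and colours mark the replicate number, filled symbols 6 h and open symbols 24 h. The 6 libraries of replicate 2 lie apart at 146 to 205 CPM of markers, with *Slc7a11* at 6.37 to 7.34 CPM and *Nqo1* at 21 to 26.5 CPM.

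The genes most like each member over the 24 libraries were taken by Pearson's r of log2 CPM, as a description of points that share cultures and runs. For *Hmox1* they were *Cbarp* (r = 0.955), *Ttll11* (0.937) and *Ppp1r13l* (0.929). For *Gclc* they were *Aktip* (0.949), *Ablim1* (0.947) and *Hspa12a* (0.943), and for *Txnrd1* *Dusp4* (0.960), *Col4a1* (0.947) and *Col5a1* (0.944). For *Slc7a11* they were *Prkcb* (0.932), *Ptprc* (0.924) and *Lyn* (0.924), genes expressed in leukocytes and microglia; without replicate 2 these values were 0.752, 0.770 and 0.751 over 18 libraries. For *Nfe2l2* the closest gene was *Washc5* (0.911). No member was among the 3 genes most like another member, but several members varied together. The highest r between members were those of *Hmox1* and *Srxn1* (0.740, or 0.342 about the group means), *Slc7a11* and *Gsr* (0.739, or 0.757), *Txnrd1* and *Srxn1* (0.691, or 0.545) and *Nfe2l2* and *Gclc* (0.677, or 0.617). *Nfe2l2* had r = 0.542 with *Gclm*, 0.365 with *Nqo1* and -0.537 with *Hmox1*.

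Another 80 genes were followed in 9 lists, 62 of them regulators, enzymes and carriers of the Nrf2 pathway, 10 the transcription factor gene *Atf4* and targets of ATF4, and 8 targets of NF-kB. None of them was called between doses by the unpaired test. Of the 62 pathway genes, 1 rose and 2 fell between 6 h and 24 h at 0 Gy, 2 rose and 3 fell at 0.1 Gy, and 1 rose and 3 fell at 2 Gy in edgeR. Of all genes 3.24% rose and 3.46% fell at 0 Gy, 4.57% and 5.33% at 0.1 Gy, and 3.02% and 3.92% at 2 Gy. Of the 10 *Atf4* and ATF4 target genes 0, 0 and 1 rose and 3, 1 and 1 fell, and of the 8 NF-kB targets 0 rose and 4, 5 and 4 fell. The iron exporter gene *Slc40a1* rose by 1.5, 1.26 and 1.22 on the log2 scale at 0, 0.1 and 2 Gy (adjusted p = 0.0189, 0.0164 and 0.0355). *Maff*, a small Maf partner of Nrf2, fell with log2 differences of -2.02, -1.66 and -1.59 (adjusted p = 0.00543, 0.00540 and 0.00882), and *Atf4*, a regulator of amino acid supply that also acts on *Slc7a11*, fell with -1.21, -1.11 and -1.04 (adjusted p = 0.00806, 0.00297 and 0.00951). Among the NF-kB targets *Ccl2* fell with -2.67, -2.39 and -2.66. *Keap1*, *Bach1*, *G6pdx* and *Prdx1* were among the genes not called at any dose.

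With the replicate block, 8 of the 62 pathway genes were called higher and 0 lower at 24 h after 0.1 Gy (2.34% and 4.5% of all genes), and 14 higher and 2 lower after 2 Gy (6.53% and 6.69% of all genes). Of the ATF4 list 1 was higher after 0.1 Gy and 4 after 2 Gy, and of the NF-kB targets 1 and 1, with 0 lower. The metallothioneins, which bind zinc and copper and scavenge radicals, were among these pathway genes. *Mt2* was higher by 1.09 after 0.1 Gy and 1.36 after 2 Gy (adjusted p = 0.0174 and 0.00298 in the blocked edgeR fit), *Mt1* by 0.61 and 0.84 (0.0258 and 0.00494) and *Mt3* by 0.69 and 0.81 (0.0262 and 0.00612). The ratio of *Mt2* between 2 Gy and 0 Gy was 2.64, 2.96, 3.33 and 1.64 in replicates 1 to 4. With GC and length adjustment, 7 of the 62 were higher and 1 lower after 0.1 Gy (1.35% and 0.538% of all genes) and 10 higher and 0 lower after 2 Gy (1.82% and 1.69%). *Mt2* was then higher by 0.90 and 1.10 and *Mt1* by 0.46 and 0.65, while *Mt3* missed the threshold after 2 Gy (0.39, adjusted p = 0.0798). Both comparisons used the same mock-irradiated libraries, and the blocked fits called 0 of the 10 members at either dose, with 6.84% and 13.2% of all genes called, and 1 and 4 members at an unadjusted p under 0.05.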

How the data were processed

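RNA of 24 cultures was sequenced after poly(A) selection, in 6 groups of 4 libraries defined by dose and time. The authors deposited raw read counts per gene and library, which are not normalized; the aligner, the counting program and its use of strand are not given in the sources used here. Gene positions in the tables match GRCm38. Per the study's methods, the 4 libraries of a group are biological repeats. No 2 libraries of a group were alike: over their 36 pairs, chi-square divided by its degrees of freedom was at least 25.9.

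Counts were tested with edgeR 4.0.16 (quasi-likelihood, TMM, filterByExpr on the libraries compared) in R 4.3.3, with Benjamini-Hochberg adjustment over all genes tested and a call at an adjusted p under 0.05. In the tests of dose, same-numbered libraries deviated together (r from 0.54 to 0.927 across genes), as they did between times at 0.1 Gy (0.385 to 0.845) and 2 Gy (0.255 to 0.828), so the replicate block is given where it changed a call. GC content and gene length were adjusted for per library with splines with 5 degrees of freedom. DESeq2 1.42.0 was an alternative. Levels are CPM after TMM, and marker sums are CPM on library size alone. The procedures were tested on simulated data. The members and lists were chosen with earlier results of these data known. Genes named outside the members come from the pathway lists, the cell type markers and the 3 genes most like a member. Leaving out a replicate number from the blocked fits was chosen after seeing the data.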

Additional observations from a re-analysis of the deposited data

Results flagged for a closer look

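In 2 of the 60 groups of 4 libraries examined (10 members, 6 groups), 1 library lay far from the other 3 by Dixon's criterion, which chance exceeds in about 1 group in 20. *Gclc* after 0.1 Gy at 6 h was at 132 CPM in replicate 2 and at 71.5 to 74.3 CPM in the others. *Srxn1* after 0.1 Gy at 24 h was at 105 CPM in replicate 3 and at 78.5 to 82.3 CPM in the others.

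The effect of 2 Gy differed between 6 h and 24 h for *Nfe2l2* with the replicate block (log2 interaction -0.60, edgeR adjusted p = 0.0427) and for *Sod2* with the block and GC and length adjustment (0.53, edgeR adjusted p = 0.0351). The interaction of *Nfe2l2* missed the threshold without the block (adjusted p = 0.819) and with block and adjustment (0.0538). That of *Sod2* missed it without the block (0.23, adjusted p = 0.845) and with the block alone (0.24, adjusted p = 0.149).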

How the results depend on the processing

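Members called between 24 h and 6 h at 0 Gy numbered 1, and 2 by DESeq2's Wald test (11.2% of all genes called), 4 with all 24 libraries in one fit (14.3%), 3 with the replicate block (15.3%) and 6 with the block and the GC and length correction (26.6%). The block added *Gclc* and *Srxn1*. At 0.1 Gy they numbered 1, and 4 with the block (25.7%), 4 with block and correction (36.1%), and 0 when a log2 difference of at least 1 was also required. At 2 Gy they numbered 1, and 4 with block and correction (28.7%) and 0 with that minimum difference. With 1 library left out the counts were 0 to 4 at 0 Gy (1.04% to 18.6% of all genes), 1 to 2 at 0.1 Gy (3.22% to 11.5%) and 0 to 1 at 2 Gy (1.36% to 11.4%), and in blocked fits without 1 replicate number 1 to 6 (3.71% to 45.4%), 1 to 4 (13.4% to 23.6%) and 0 to 4 (5.5% to 30.1%). For 2 Gy against 0 Gy the count was 0, and with block and correction 1 at 6 h (0.719%) and 1 at 24 h (3.51%). Blocked fits without 1 replicate number gave 0 to 1 at 6 h (0% to 0.799% of all genes), 0 to 5 at 24 h (0.432% to 33.1%), and 0 to 2 for 0.1 Gy against 0 Gy at 24 h (0.0987% to 23.2%). The interaction count was 0, and 1 with the block (6.78%), 1 with block and correction (2.38%) and 0 to 2 in blocked fits without 1 replicate number (0% to 23.4% of all genes). The difference of *Slc7a11* at 24 h turned to 0.043 for 2 Gy and 0.085 for 0.1 Gy, against 0 Gy, with block and correction. The cause of these changes was not tested.

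At 0 Gy the numbers did not pair the times (lowest r = 0.062, replicate 3; 3 of 4 correlated best with their own number). The block changed no other call of a member than those given. The 60 group means of the members, as log2 level relative to the gene's mean over the 24 libraries, moved by less than 1 SD on library size alone, and division by gene length cannot move them. Of 100 log2 differences of members, 27 turned sign in an alternative and 49 with a library left out, and the largest of those that turned was 0.369. Precision is limited by 4 libraries per group.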
